A study of Mus musculus with 110 samples.

Results

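Fat can make heat by routes that do not need uncoupling protein 1 (UCP1), the brown fat protein that lets protons leak back into the mitochondrial matrix. In creatine cycling, phosphocreatine is made and broken down again at the cost of ATP. In calcium cycling, a pump and a release channel move calcium across the endoplasmic reticulum in opposite directions, and in glycerolipid cycling, triglycerides are broken down and rebuilt. The 10 genes described here are known for these routes: 5 for creatine (Ckb, Ckmt2, Gatm, Slc6a8 and Alpl), 2 for calcium (Atp2a2 and Ryr2), 2 for glycerolipid synthesis (Gk and Gpd1), and Pm20d1, a secreted enzyme that makes N-acyl amino acids, lipids that uncouple respiration. They were taken by symbol from 56884 genes in the count tables of liver, interscapular brown fat (iBAT), inguinal white fat (iWAT) and epididymal white fat (eWAT). All 10 had enough counts for testing in the 3 fat depots, and 8 had in liver.

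The question was how methionine restriction (MetR), cold exposure (CE) and the pair of them act on these tissues. Wild-type male C57BL/6N mice, housed singly and 16 weeks old, received for 7 days a cysteine-free diet with 0.86% methionine (Ctrl) or 0.12% methionine (MetR). They stayed at room temperature (RT, 22 °C) or spent 24 h at 4 °C, which gave the groups Ctrl_RT, Ctrl_CE, MetR_RT and MetR_CE with up to 7 mice each, 1 library per mouse and tissue. By the study's methods, the cold day came after the 7 days at RT, so that the cold groups were also on their diets for a day longer, and diet time and temperature cannot be told apart. The lack of dietary cysteine was thus common to the control mice too. All tissues were bulk samples, so that fewer cells of a type and less RNA per cell cannot be told apart.

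RNA was sequenced in 110 libraries, of which 105 were used. Total counts ranged from 6987895 to 33444374 in liver, 12672686 to 31232349 in iBAT, 16607493 to 33141066 in iWAT and 22021114 to 33372110 in eWAT. The 5 libraries that the study left out, 1 of iBAT and 4 of eWAT, were left out here also. Group sizes were then 7, except for 6 in iBAT Ctrl_RT, iBAT Ctrl_CE, iWAT MetR_CE and eWAT MetR_RT, and 4 in eWAT Ctrl_RT. Replicate 1 of MetR_RT, Ctrl_CE and MetR_CE in iBAT has a treatment tag that names another group than the title does, and these 3 libraries were placed by title. Levels are library-scaled counts after TMM normalization (CPM, the counts of a gene per 1000000 counts), fold changes are log2 values from edgeR ± SE, and a gene was called when its adjusted p was under 0.05 and it differed at least 1.5-fold.

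Among genes with a tabulated promoter, the 250 bases before the start site are shown for the genes whose levels set the pattern described below. Ckb, Gk and Alpl had the largest log2 fold changes in cold iBAT among the members with a window, whereas Ckmt2, a mitochondrial creatine kinase known from striated muscle, was called in no contrast of any tissue. All 4 genes lie on the minus strand, and the windows (RefSeq, GRCm38.p6) are Ckb chr12:111672339-111672588, Gk chrX:85776820-85777069, Alpl chr4:137796385-137796634 and Ckmt2 chr13:91876886-91877135. Capitals mark CG dinucleotides.
Ckb: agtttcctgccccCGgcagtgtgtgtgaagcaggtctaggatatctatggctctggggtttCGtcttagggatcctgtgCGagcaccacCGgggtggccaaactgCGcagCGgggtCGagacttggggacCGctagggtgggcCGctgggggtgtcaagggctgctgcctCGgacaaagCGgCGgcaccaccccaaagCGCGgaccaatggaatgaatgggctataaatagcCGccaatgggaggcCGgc
Gk: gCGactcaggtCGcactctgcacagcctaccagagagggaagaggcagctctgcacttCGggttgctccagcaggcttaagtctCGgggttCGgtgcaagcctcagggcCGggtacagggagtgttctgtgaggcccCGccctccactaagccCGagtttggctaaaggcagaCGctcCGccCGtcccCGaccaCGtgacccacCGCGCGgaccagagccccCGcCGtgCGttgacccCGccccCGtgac
Alpl: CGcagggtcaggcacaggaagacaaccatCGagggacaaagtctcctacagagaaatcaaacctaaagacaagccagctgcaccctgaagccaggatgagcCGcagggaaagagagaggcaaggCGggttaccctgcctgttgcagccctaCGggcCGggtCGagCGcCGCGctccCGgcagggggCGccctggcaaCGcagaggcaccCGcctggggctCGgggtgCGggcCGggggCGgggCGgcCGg
Ckmt2: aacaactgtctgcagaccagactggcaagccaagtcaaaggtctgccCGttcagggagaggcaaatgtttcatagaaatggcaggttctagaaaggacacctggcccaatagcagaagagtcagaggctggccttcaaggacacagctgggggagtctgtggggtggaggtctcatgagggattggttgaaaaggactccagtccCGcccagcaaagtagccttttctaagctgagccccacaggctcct
The windows of Gk, Alpl and Ckb held 21, 20 and 16 CG, against a median of 6 over 32851 promoters of the same length, and that of Ckmt2 held 2. A second start of Alpl (chr4:137766476-137766725), inside the gene, held 4 CG. The cAMP response element TGACGTCA, the estrogen-related receptor motif TCAAGGTCA, the ATF4 and C/EBP motif TGATGCAAT and the PPAR direct repeat were searched on both strands. None of these letter strings stood in the windows of the 6 members that had one (these 3, Ckmt2, Gatm and Ryr2). They stood in 1.55%, 0.387%, 0.167% and 0.0335% of all promoters.

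At Ctrl_RT, each gene had its own order over the tissues. Liver, iBAT with iWAT, and eWAT stand in separate count tables with separate runs of library numbers. Except between iBAT and iWAT, level differences between tissues and between these library series cannot be told apart. Gpd1, the cytosolic glycerol-3-phosphate dehydrogenase, was at 15014 ± 1153 CPM in iBAT (mean ± SD, n = 6), 2445 ± 658 in iWAT (n = 7), 1161 ± 208 in eWAT (n = 4) and 727 ± 108 in liver (n = 7), on 1 common scale for all tissues. Every neighbour in that order differed, eWAT from liver by log2 0.68 ± 0.23 (adjusted p = 0.00802), although limma voom, with mice as blocks, did not call this last difference (log2 0.65, adjusted p = 0.260). Per kb of exon, the mean of Gpd1 in iBAT was 5070.4 CPM, next to 4747 for Ucp1 and 65.8 for Atp2a2. Glycerol kinase, Gk, which phosphorylates free glycerol, was at 263.2 ± 95.4 CPM in iBAT, 84.4 ± 12.4 in liver, 20.2 ± 14.8 in iWAT and 19.9 ± 22.6 in eWAT. No difference in it was called between the white depots (log2 0.02 ± 0.45, adjusted p = 1). In eWAT, however, 1 library of 4 stood far above the others (71.1 CPM against 14.1 or lower, scaled within eWAT), so these levels cannot show equality. iBAT exceeded liver in Gk by log2 1.64 ± 0.40 (adjusted p = 0.000239).

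Creatine genes were spread differently. Ckb, the cytosolic creatine kinase, was highest in eWAT (75.2 ± 57.2 CPM, 1 library of 4 far above the others), then came iWAT (41.6 ± 9.33), iBAT (36.1 ± 21) and liver (9.63 ± 2.34). No difference in it was called between iBAT and iWAT (log2 -0.20 ± 0.26, adjusted p = 0.571). Alpl, tissue-nonspecific alkaline phosphatase, was at 64.2 ± 8.21 CPM in iBAT and 28.2 ± 7.23 in liver, and eWAT and iWAT, which were not called apart (log2 -0.60 ± 0.27, adjusted p = 0.101), were at 5.87 ± 1.53 and 3.88 ± 0.963. Slc6a8, the creatine transporter, had like means in iBAT, eWAT and iWAT (31.7 ± 2.7, 30.8 ± 20.3 and 26.8 ± 3.8 CPM, no pair of depots called). It was lower in liver (14.3 ± 3.04). Its eWAT mean also included 1 library of 4 far above the others. Gatm, the enzyme of the first step of creatine synthesis, led in iWAT at 14.4 ± 3.86 CPM, ahead of liver at 9.04 ± 1.47 (log2 0.68 ± 0.26, adjusted p = 0.0207). eWAT and iBAT followed at 4.13 ± 0.896 and 3.41 ± 1.71 CPM and were not called apart (log2 -0.27 ± 0.32, adjusted p = 0.509).

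Ckmt2 was at 6.17 ± 6.62 CPM in iBAT and 2.11 ± 2.48 in iWAT, an SD as large as the mean. It had 15 counts in all 24 eWAT libraries together and 0 in the 28 liver libraries, which allows up to 0.00677 CPM over all of them (3 counts, counting error only). Atp2a2, which encodes the calcium pump SERCA2, was at 400.0 ± 30.6 CPM in iBAT, 363 ± 52.5 in liver, 177 ± 18.8 in iWAT and 173 ± 8.02 in eWAT. No difference was called between iBAT and liver (log2 0.14 ± 0.10, adjusted p = 0.266) or between iWAT and eWAT (log2 0.04 ± 0.12, adjusted p = 0.888). The calcium release channel Ryr2 was at 1.95 ± 0.513 CPM in iBAT and under 1 CPM in each Ctrl_RT library of the white depots, and liver held 5 counts in 28 libraries. Pm20d1 was led by liver at 169.8 ± 18.7 CPM, against 29.5 ± 2.91 in iBAT, 3.95 ± 1.99 in eWAT and 3.39 ± 1.27 in iWAT. iBAT was below liver in it, at log2 -2.52 ± 0.19 (adjusted p = 4.58e-22). In counts, 7, 8 and 4 of 10 members were called between iBAT and iWAT, iBAT and eWAT, and iWAT and eWAT, beside 33.3%, 35.5% and 16% of all genes in this fit. Between these depots and liver, 9, 10 and 9 were called (iBAT, iWAT, eWAT), beside 43.5%, 45.8% and 44.9%.

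In iBAT, Ckb and Gk rose most against Ctrl_RT in both cold groups, and Atp2a2 and Alpl rose less and with little spread. Gpd1 was called higher in MetR_CE, a group that differs from Ctrl_RT in diet and temperature together. Methionine restriction alone called none. Of 10 members, 4 were called higher and 1 lower in Ctrl_CE against Ctrl_RT (14.7% of all genes called, 4.97% higher and 9.72% lower). In MetR_CE, 5 were called higher and 0 lower (14.7% of all genes, 4.36% higher and 10.3% lower). In MetR_RT, edgeR called 0 of 10 (2.5% of all genes), 6 had an unadjusted p under 0.05 (as had 5008 of all 23915 genes), and DESeq2 also called 0. The median log2 fold change of the members was 0.44 in Ctrl_CE, -0.15 in MetR_RT and 0.55 in MetR_CE, where all genes had -0.08, -0.04 and -0.10.

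**Figure D1:**
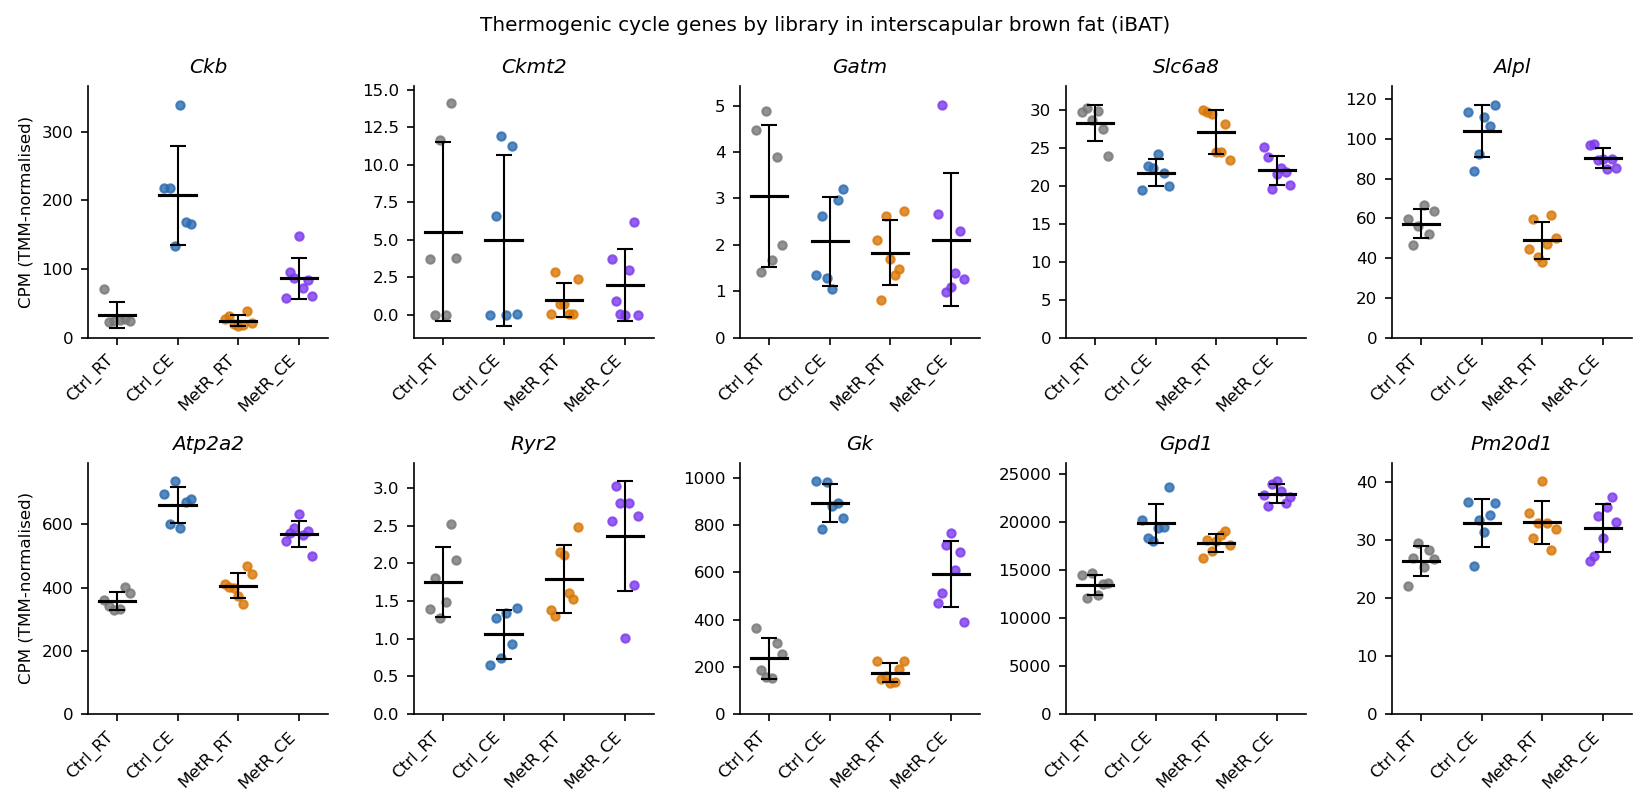
Level of each of the 10 genes in every iBAT library, in CPM after TMM normalization, by group (points: libraries, n = 6, 6, 7 and 7 in the order of the axis; bar and error bar: mean ± SD). Ckb, Gk, Alpl and Atp2a2 stand higher in Ctrl_CE than in every Ctrl_RT library, whereas Ckmt2 scatters from 0 to 14.1 CPM.

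The lowest, median and highest Ckb levels in iBAT were 23.3, 24.7 and 70.7 CPM in Ctrl_RT and 134, 193 and 339.7 CPM in Ctrl_CE. They were 16.4, 20.8 and 38.3 CPM in MetR_RT and 57.8, 84.4 and 147 CPM in MetR_CE. On either diet, the cold and room-temperature libraries did not overlap within that diet, and the 70.7 CPM of Ctrl_RT replicate 1 stood far above the other Ctrl_RT libraries. Ckb rose by log2 2.68 ± 0.28 (adjusted p = 9.31e-09) in Ctrl_CE and by 1.42 ± 0.26 (adjusted p = 9.14e-05) in MetR_CE. It was lower in MetR_CE than in Ctrl_CE, at a log2 difference of -1.26 ± 0.25 (adjusted p = 0.00349). The interaction of diet and temperature did not pass (-0.86 ± 0.37, adjusted p = 0.304). Without Ctrl_RT replicate 1, it did (log2 -1.26, adjusted p = 0.0409).

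Gk showed the same order of groups. Its lowest, median and highest levels were 152, 221 and 366 CPM in Ctrl_RT, 783, 888 and 987 CPM in Ctrl_CE, 133, 161 and 227 CPM in MetR_RT and 392, 609 and 768 CPM in MetR_CE. Every cold library stood above every room-temperature library, and every MetR_CE library below every Ctrl_CE library. The rise was 1.92 ± 0.19 (adjusted p = 3.38e-09) in Ctrl_CE and 1.33 ± 0.18 (adjusted p = 1.04e-06) in MetR_CE. MetR_CE differed from Ctrl_CE by -0.59 ± 0.18 (adjusted p = 0.0487), a call that ended when any of 14 of the 26 libraries was left out. Gpd1 had its lowest group at Ctrl_RT (12085, 13562 and 14643 CPM) and its highest at MetR_CE (21654, 22817 and 24222). Between them lay MetR_RT (16277, 17967 and 19021 CPM) and Ctrl_CE (18024, 19408 and 23639), both wholly above Ctrl_RT. Gpd1 was called in MetR_CE alone (0.77 ± 0.06, adjusted p = 8.40e-11), and the differences of 0.56 ± 0.06 (adjusted p = 3.59e-08) in Ctrl_CE and 0.40 ± 0.06 (adjusted p = 0.000112) in MetR_RT stayed below 1.5-fold.

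Alpl and Atp2a2 differed with temperature at narrow spread. Alpl had 46.6, 57.9 and 66.8 CPM as its lowest, median and highest in Ctrl_RT, 83.7, 109 and 117 CPM in Ctrl_CE, 38.1, 47.3 and 61.8 CPM in MetR_RT and 84.9, 89.9 and 97.5 CPM in MetR_CE. Cold and room-temperature libraries were apart on both diets. The log2 fold change was 0.86 ± 0.10 (adjusted p = 9.01e-08) in Ctrl_CE and 0.66 ± 0.10 (adjusted p = 4.41e-06) in MetR_CE. Atp2a2 had 329.7, 351 and 402 CPM in Ctrl_RT, 590.3, 676 and 737 CPM in Ctrl_CE, 347, 403 and 470.1 CPM in MetR_RT and 500.4, 573 and 633 CPM in MetR_CE, again with no overlap between temperatures. It rose by 0.89 ± 0.07 (adjusted p = 4.41e-11) in Ctrl_CE and by 0.67 ± 0.07 (adjusted p = 5.32e-09) in MetR_CE. Its interaction had the lowest adjusted p of the 10 members in iBAT, at -0.40 ± 0.09 (adjusted p = 0.0329), with a size below 1.5-fold.

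Of the other 5 members in iBAT, Ryr2 alone was called against Ctrl_RT by edgeR. Ryr2, at 1.27, 1.64 and 2.52 CPM in Ctrl_RT and 0.653, 1.1 and 1.4 CPM in Ctrl_CE with overlap, was called lower (-0.73 ± 0.24, adjusted p = 0.0209), and that call ended without Ctrl_RT replicate 5 (-0.59, adjusted p = 0.0675), Ctrl_CE replicate 1 (-0.62, 0.0598) or Ctrl_CE replicate 3 (-0.64, 0.0527). In MetR_CE, Ryr2 was at 1.0, 2.63 and 3.02 CPM, above Ctrl_CE by 1.16 ± 0.24 (adjusted p = 0.00370). Slc6a8 was a little lower in the cold, by -0.38 ± 0.08 (adjusted p = 0.000165) in Ctrl_CE and -0.36 ± 0.07 (adjusted p = 0.000241) in MetR_CE, below 1.5-fold. Pm20d1 ranged from 22.0 to 40.1 CPM over all 26 libraries, and its fold changes of 0.32 ± 0.09, 0.32 ± 0.09 and 0.27 ± 0.09 in Ctrl_CE, MetR_RT and MetR_CE were also below 1.5-fold. Gatm had medians from 1.40 to 2.95 CPM and no adjusted p under 0.05. For comparison, Ucp1 rose by 0.86 ± 0.08 (adjusted p = 1.04e-09) in Ctrl_CE and by 0.94 ± 0.08 (adjusted p = 1.48e-10) in MetR_CE.

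The 3 libraries with a second group name did not carry these cold calls. Without them, the log2 fold change in Ctrl_CE was 2.67 for Ckb, 1.9 for Gk, 0.83 for Alpl and 0.88 for Atp2a2, all called. The Ryr2 call in Ctrl_CE (-0.62, adjusted p = 0.0682) and the Gk call between MetR_CE and Ctrl_CE (-0.52, 0.139) ended. With groups set by the tag in place of the title, Ckb had 2.51 in Ctrl_CE, and its calls in MetR_CE against MetR_RT (0.81, adjusted p = 0.296) and against Ctrl_CE (-0.98, 0.432) ended. Of the 10 brown adipocyte markers, 5 were also called higher in each cold group of iBAT. In Ctrl_RT, Ctrl_CE and MetR_CE, the medians of Cidea were 1951, 1788 and 1692 CPM and those of Cox8b 487, 385 and 421. These were thus lower in Ctrl_CE and MetR_CE, whereas Cox7a1, Lhx8 and Zic1 of that list had higher medians there. Of 8 macrophage markers, 7 were lower in MetR_CE. The part of all these markers in the result was not tested.

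In iWAT, 4 of the genes that rose in cold iBAT rose as well, and most of them rose with methionine restriction at room temperature also. Gk, Gpd1, Alpl and Pm20d1 were called higher in Ctrl_CE, MetR_RT and MetR_CE, and Atp2a2 in both cold groups. Ckb, which rose most in iBAT, was not called in iWAT. In each of Ctrl_CE and MetR_RT, 5 of 10 members were called higher and 0 lower (15.9% of all genes called in Ctrl_CE, 5.99% higher, and 11.6% in MetR_RT, 4.25% higher). In MetR_CE, 6 were higher and 0 lower (22.4% of all genes, 8.05% higher). The median log2 fold change of the members was 0.49, 1.28 and 1.20, beside -0.11, -0.03 and -0.08 for all genes.

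**Figure D2:**
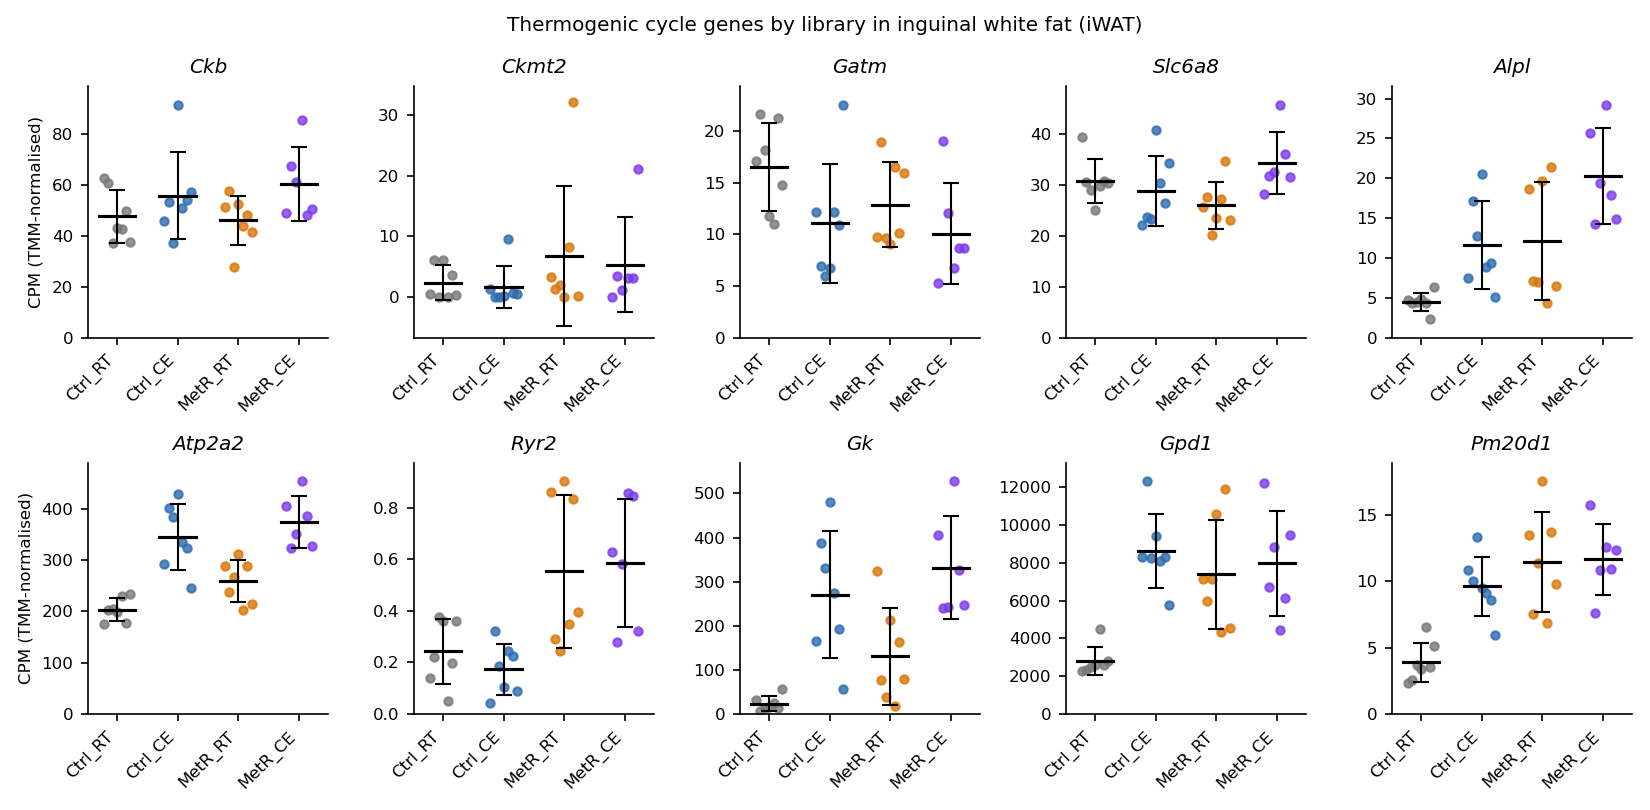
Level of each of the 10 genes in every iWAT library, in CPM after TMM normalization, by group (points: libraries, n = 7, 7, 7 and 6 in the order of the axis; bar and error bar: mean ± SD). Gk, Gpd1, Alpl and Pm20d1 have their lowest mean in Ctrl_RT, and Ckb keeps medians between 43 and 55.7 CPM.

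Gk had its lowest, median and highest levels in iWAT at 6.95, 15.3 and 57.6 CPM in Ctrl_RT, 56.3, 274.9 and 481 CPM in Ctrl_CE, 17.5, 79.4 and 323 CPM in MetR_RT and 241, 286.2 and 528 CPM in MetR_CE. The MetR_CE libraries stood apart from Ctrl_RT, whereas Ctrl_CE and MetR_RT each overlapped with it and had a wide spread. Gk rose by log2 3.53 ± 0.55 (adjusted p = 2.74e-05) in Ctrl_CE, 2.48 ± 0.53 (adjusted p = 0.00105) in MetR_RT and 3.83 ± 0.56 (adjusted p = 5.90e-06) in MetR_CE. Gpd1 was at 2298, 2582 and 4497 CPM in Ctrl_RT, 5799, 8296 and 12333 CPM in Ctrl_CE, 4324, 7142 and 11927 CPM in MetR_RT and 4423, 7787 and 12249 CPM in MetR_CE. Ctrl_CE did not overlap with Ctrl_RT, and 1 Ctrl_RT library (replicate 5, 4497 CPM) reached into the other groups. The fold changes of Gpd1 were nearly equal in the 3 groups (1.63 ± 0.24, 1.40 ± 0.24 and 1.51 ± 0.24; highest adjusted p = 0.000156). On the log2 scale, cold and diet together thus gave less than the sum of each, with an interaction of -1.51 ± 0.34 (adjusted p = 0.0186).

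Pm20d1 had the same shape in iWAT. Its levels were 2.36, 3.53 and 6.56 CPM in Ctrl_RT, 5.96, 9.48 and 13.3 CPM in Ctrl_CE, 6.83, 11.4 and 17.6 CPM in MetR_RT and 7.58, 11.6 and 15.7 CPM in MetR_CE, and both MetR groups were wholly above Ctrl_RT. It rose by 1.30 ± 0.22 (adjusted p = 8.44e-05), 1.56 ± 0.22 (adjusted p = 4.87e-05) and 1.58 ± 0.23 (adjusted p = 4.95e-06) in Ctrl_CE, MetR_RT and MetR_CE. Its interaction was -1.28 ± 0.32 (adjusted p = 0.0288), which was no longer called without MetR_RT replicate 4 or any of 4 MetR_CE libraries (replicates 2 to 5; adjusted p from 0.0501 to 0.0542). By edgeR, these 2 of 10 members were called in the interaction, where 1.65% of all genes were. Gk had the largest interaction but missed the threshold (-2.18 ± 0.73, adjusted p = 0.0931), and DESeq2 without shrinkage called it (-2.23, adjusted p = 0.0227).

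Alpl, the phosphatase, was highest in MetR_CE of iWAT, with 2.38, 4.43 and 6.28 CPM in Ctrl_RT, 5.07, 9.39 and 20.6 CPM in Ctrl_CE, 4.28, 7.07 and 21.4 CPM in MetR_RT and 14.2, 18.7 and 29.2 CPM in MetR_CE, and MetR_CE alone was free of overlap with Ctrl_RT. Its log2 fold changes were 1.37 ± 0.34 (adjusted p = 0.00266), 1.44 ± 0.34 (adjusted p = 0.00250) and 2.18 ± 0.35 (adjusted p = 1.61e-05) in that order. MetR_CE was above each single treatment without a call (0.81 ± 0.34, adjusted p = 0.182 against Ctrl_CE). Atp2a2 was at 175, 203 and 233 CPM in Ctrl_RT, 245.3, 335 and 428 CPM in Ctrl_CE, 203, 266.6 and 312 CPM in MetR_RT and 324, 368 and 454 CPM in MetR_CE. Both cold groups were wholly above Ctrl_RT, by 0.76 ± 0.12 (adjusted p = 2.23e-05) and 0.88 ± 0.12 (adjusted p = 2.26e-06). In MetR_RT, Atp2a2 differed by 0.35 ± 0.12 (adjusted p = 0.0294), below 1.5-fold.

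Ryr2 was under 1 CPM in every iWAT library, with medians of 0.22, 0.185, 0.396 and 0.605 CPM for Ctrl_RT, Ctrl_CE, MetR_RT and MetR_CE. It was called higher in MetR_RT (1.16 ± 0.40, adjusted p = 0.0356) and MetR_CE (1.25 ± 0.40, adjusted p = 0.0151), and in MetR_CE against Ctrl_CE (1.80 ± 0.44, adjusted p = 0.0249; 2.27% of all genes called). The MetR_RT call ended without any of 7 libraries (replicates 1, 2, 5 and 6 of Ctrl_RT and 1, 4 and 6 of MetR_RT), with no filter on low counts (adjusted p = 0.0501) and with the 2 groups fitted alone (0.0530), and that against Ctrl_CE without Ctrl_CE replicate 1 or 7 or MetR_CE replicate 4 or 5. The creatine genes other than Alpl were not called. Ckb was at 37.2, 43 and 62.6 CPM in Ctrl_RT and 37.1, 53.2 and 91.6 CPM in Ctrl_CE, and had a log2 fold change of 0.23 ± 0.18 (adjusted p = 0.353). Slc6a8 had -0.10 ± 0.13, -0.24 ± 0.13 and 0.16 ± 0.14. Gatm, at 10.9, 17.1 and 21.6 CPM in Ctrl_RT and 5.29, 8.65 and 19 CPM in MetR_CE, missed the threshold (-0.72 ± 0.29, adjusted p = 0.0541) and passed it under 7 of the alternative settings.

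Other markers moved with these genes in iWAT. Of 10 brown adipocyte markers, 8 were called higher in each of the 3 groups, and their summed level had medians of 503, 4001, 2349 and 5856 CPM in Ctrl_RT, Ctrl_CE, MetR_RT and MetR_CE. All 8 macrophage markers were lower in each group (median sums of 1205, 516, 389 and 225 CPM). Their part in the rises was not tested. Ucp1 itself ranged from 1.27 to 449 CPM in Ctrl_RT, 530.1 to 4481 in Ctrl_CE, 210.2 to 3598 in MetR_RT and 2173 to 5658 in MetR_CE.

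Members also varied with Ucp1 from mouse to mouse within the iWAT groups. With the group means removed and 27 libraries, log2 Gk correlated with log2 Ucp1 at Pearson r = 0.82 (adjusted permutation p = 9.5e-05, from the smallest p that 100000 permutations can give) and Spearman rho = 0.89 (9.5e-05), and r was 0.87 without the 2 libraries farthest from the median Ucp1. Alpl, Pm20d1, Atp2a2 and Gpd1 had r = 0.58, 0.63, 0.51 and 0.49 (adjusted permutation p = 0.00234, 0.00700, 0.00760 and 0.0334) and rho = 0.81, 0.68, 0.69 and 0.58 (9.5e-05, 0.00304, 0.000969 and 0.0104), with r = 0.77, 0.60, 0.69 and 0.51 without 2 libraries. Gatm went the other way, with r = -0.57 (0.000356), rho = -0.74 (0.000499) and -0.66 without 2 libraries. Ckb had r = -0.10 (0.792) and rho = 0.03 (0.964), and Slc6a8 r = 0.06 (0.831) and rho = 0.08 (0.900). In iBAT (26 libraries), where Ucp1 varied less, Gpd1 had r = 0.51 (0.0449) and rho = 0.50 (0.0621), and Gk r = 0.47 (0.126) and rho = 0.41 (0.181). Adjusted p cover 57 relations, and the tests were added after the data had been seen. The share of all genes that vary with Ucp1 in this way is not given. These values thus do not show a relation particular to the members.

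The cold responses differed between depots for Ckb and for glycerolipid genes. In a joint fit of all tissues, its cold response under Ctrl diet was lower in iWAT than in iBAT, at a log2 difference of -2.46 ± 0.37 (adjusted p = 3.11e-07), and higher in iBAT than in eWAT by 2.53 ± 0.39 (adjusted p = 1.52e-06), which called 1 of 10 members (4.5% of all genes). Gk, Gpd1 and Pm20d1 responded more in iWAT than in iBAT, by 1.60 ± 0.56 (adjusted p = 0.0442), 1.05 ± 0.29 (adjusted p = 0.00636) and 0.97 ± 0.27 (adjusted p = 0.00688). Between iWAT and eWAT, 1 of 10 differed in its cold response (4.18% of all genes), Gk, higher in iWAT by 3.28 ± 0.59 (adjusted p = 0.000121). The 4 of 10 members that differed between iWAT and iBAT stand beside 8.15% of all 32143 genes. The difference in Gk was not called with all deposited libraries (adjusted p = 0.0909).

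In MetR_RT, the response of Gk was higher in iWAT than in iBAT by 2.91 ± 0.56 (adjusted p = 0.000198), that of Alpl by 1.66 ± 0.33 (adjusted p = 0.000274), that of Pm20d1 by 1.23 ± 0.26 (adjusted p = 0.000899) and that of Gpd1 by 0.99 ± 0.28 (adjusted p = 0.0189) (4 of 10, beside 3.66% of all genes). The responses of Gk, Alpl and Pm20d1 in iWAT exceeded those in eWAT as well (3.52% of all genes), but limma voom with mice as blocks, since the tissues come from the same mice, did not call that of Pm20d1 (adjusted p = 0.0578). In MetR_CE, 4 members differed between iWAT and iBAT (9.92% of all genes) and 5 between iWAT and eWAT (10.9%), of which Gk had the largest difference, 4.19 ± 0.60 (adjusted p = 4.87e-08). The responses compared in each depot share that depot's Ctrl_RT libraries.

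On the MetR diet alone, cold called 3 of 10 members in iBAT, Ckb (1.81 ± 0.26, adjusted p = 3.24e-06), Gk (1.76 ± 0.18, adjusted p = 1.17e-08) and Alpl (0.89 ± 0.10, adjusted p = 3.84e-08), beside 8.53% of all genes. In iWAT, eWAT and liver, edgeR called 0 members between MetR_CE and MetR_RT (1.88%, 0.112% and 5.18% of all genes), with 5, 2 and 7 at an unadjusted p under 0.05, and DESeq2 called 0 also. Of all genes, 5667 of 26428, 3626 of 27786 and 6509 of 22143 had such an unadjusted p. Gk in iWAT, already raised in MetR_RT, had 1.35 ± 0.52 (adjusted p = 0.122), and in liver it had 0.58 ± 0.11 (adjusted p = 0.000202), just below 1.5-fold. Between both cold groups, 3 of 10 were called in iBAT (Ckb and Gk lower and Ryr2 higher with MetR, beside 1.64% of all genes). The interaction called 0 of 10 in iBAT (0.372% of all genes), where 5 had an unadjusted p under 0.05 and DESeq2 called 1 (Ryr2), and 0 of 8 in liver (1.06%), where 3 had and DESeq2 called 0. That unadjusted p was reached by 2964 of all 23915 genes in iBAT and 3562 of 22143 in liver. Atp2a2 in iBAT had an interaction of -0.40 ± 0.09 (adjusted p = 0.0329), below 1.5-fold.

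**Figure D3:**
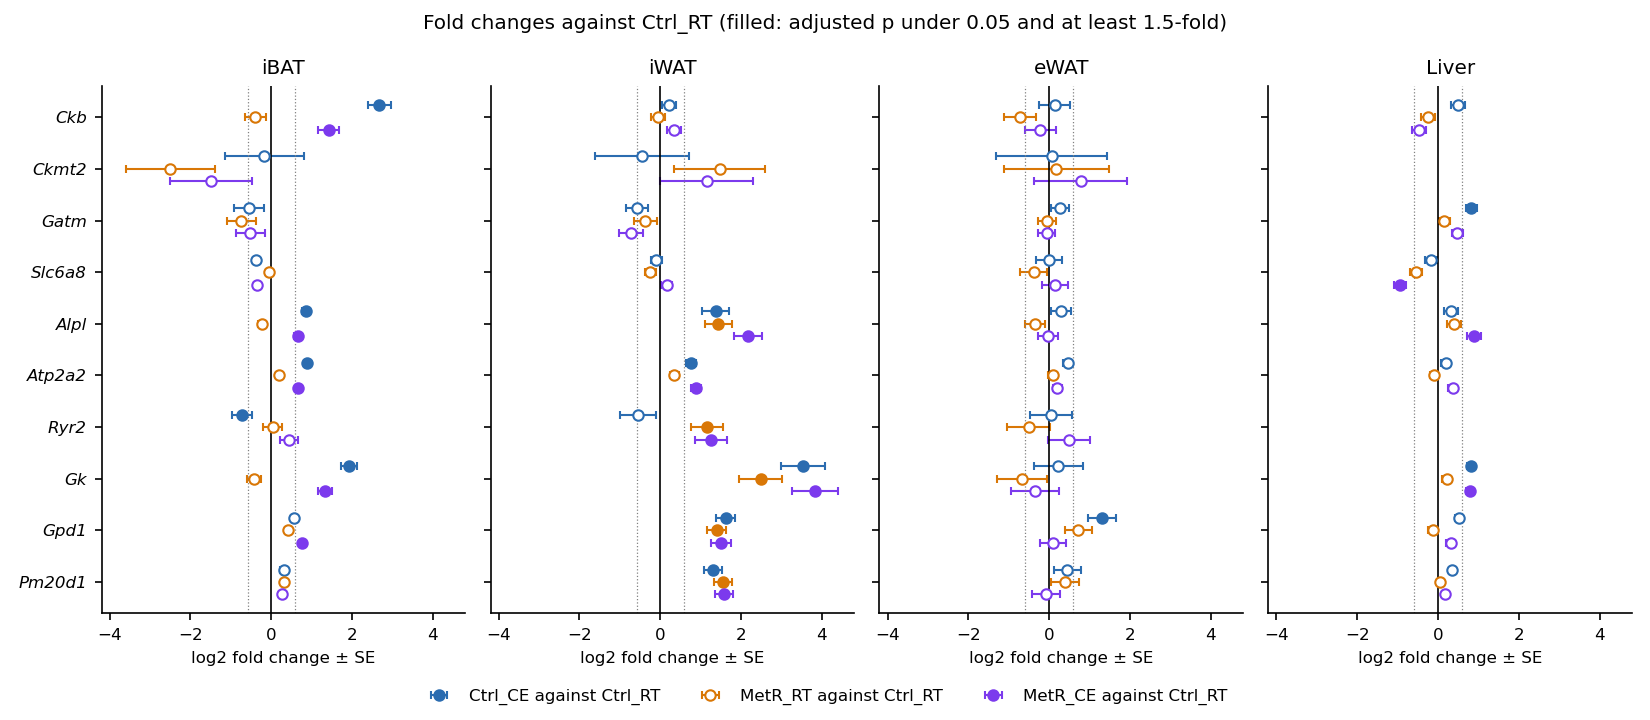
Log2 fold change ± SE of each gene against Ctrl_RT, by tissue, for Ctrl_CE, MetR_RT and MetR_CE (filled points: adjusted p under 0.05 and at least 1.5-fold, with dotted lines at 1.5-fold). Gk reaches 3.83 in iWAT and 1.92 in iBAT, Ckb reaches 2.68 in iBAT and stays near 0 in iWAT, and in eWAT only Gpd1 in Ctrl_CE is filled.

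In eWAT, Gpd1 was called in the cold on the Ctrl diet and no other member was. The Ctrl_RT libraries 1, 3, 6 and 7 had 1344, 1839, 1264 and 1607 CPM of Gpd1. Its lowest, median and highest levels were 2170.4, 3703 and 5772 CPM in Ctrl_CE, 920.3, 2793 and 3836 CPM in MetR_RT and 1144, 1392 and 2166 CPM in MetR_CE. Ctrl_CE stood wholly above both Ctrl_RT and MetR_CE. Gpd1 rose by 1.31 ± 0.34 (adjusted p = 0.0273) in Ctrl_CE, which was 1 of 10 members called (2.42% of all genes called, 0.979% higher). MetR_CE was lower than Ctrl_CE, at -1.22 ± 0.28 (adjusted p = 0.00598), and the interaction was -1.94 ± 0.44 (adjusted p = 0.0180), each again the 1 member called (4.35% and 2.3% of all genes).

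These Gpd1 calls in eWAT rest on 4 Ctrl_RT libraries. The cold call was lost without Ctrl_RT replicate 1 (1.26, adjusted p = 0.0993), 6 (1.23, 0.0700) or 7 (1.35, 0.0687) or Ctrl_CE replicate 7 (1.19, 0.0605), and with the muscle score as a covariate (1.15, 0.208). The interaction was lost without Ctrl_RT replicate 1 (-1.90, 0.0546), with all deposited libraries and with the muscle score (-1.77, 0.103). Acta1, a muscle actin, was at 17.9 to 422 CPM in Ctrl_RT and at 32.6 CPM or lower in every other eWAT library used. Its part in the Gpd1 calls was not tested beyond that covariate. The difference between MetR_CE and Ctrl_CE stayed called with it (-1.28, adjusted p = 0.00652). Myh4, a fast-muscle gene, was near absent from eWAT, at a mean of 0.00647 CPM or lower in each group on the common scale.

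Atp2a2 in eWAT was at 287.3, 299 and 354 CPM in Ctrl_CE, wholly above the 217, 232, 239 and 213 CPM of the Ctrl_RT libraries, and differed by 0.46 ± 0.11 (adjusted p = 0.0186), below 1.5-fold. In MetR_RT and MetR_CE, edgeR and DESeq2 each called 0 of 10 members (0.115% and 1.3% of all genes called), with 1 and 0 at an unadjusted p under 0.05 (2622 and 4236 of all 27786 genes). Gk was at 9.21, 10.2, 71.1 and 14.1 CPM in the Ctrl_RT libraries and at 13.3, 32.2 and 61.9 CPM in Ctrl_CE, with overlap and a log2 fold change of 0.23 ± 0.61. Ckb was at 56.1, 53.8, 212 and 72.6 CPM in Ctrl_RT and at 54.7, 109.8 and 224 CPM in Ctrl_CE. For both genes, 1 Ctrl_RT library (replicate 6) stood far above the other 3. Ucp1 was 0.239 CPM or lower in Ctrl_RT and 4.91 CPM or lower in Ctrl_CE.

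High levels of Ckb, Slc6a8 and Gk in eWAT were found in libraries with epithelial transcripts. Epcam, an epithelial adhesion gene, was at 9.75 to 65.6 CPM in 9 libraries and at 2.86 CPM or lower in the other 15. Replicate 6 of Ctrl_RT had 60.1 CPM of Epcam and 93.9 CPM of Foxj1, a gene of ciliated cells, together with 212 CPM of Ckb, 80.3 of Slc6a8 and 71.1 of Gk. MetR_RT replicate 2 had 26.6 CPM of Epcam, 0.113 of Foxj1 and 36.4 of Gk, but its 56.1 CPM of Ckb and 27.1 of Slc6a8 lay among the levels of the libraries low in Epcam. The high libraries were 1 of 4 in Ctrl_RT, 4 of 7 in Ctrl_CE, 2 of 6 in MetR_RT and 2 of 7 in MetR_CE.

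Since the libraries fall into these clusters, the relation was read within each. Over the 9 high libraries, Gk and the epithelial score (mean log2 CPM of Epcam, Krt8 and Krt18, group means removed) had r = 0.93 (adjusted permutation p = 0.116) and rho = 0.80 (0.181), Slc6a8 r = 0.61 (0.307) and rho = 0.57 (0.369), and Ckb r = 0.56 (0.426) and rho = 0.57 (0.404). Without the 2 libraries farthest from the median score, r among them was 0.92 for Gk, 0.06 for Slc6a8 and -0.07 for Ckb. The 9 libraries allow few permutations within groups, so their permutation p values cannot decide the relation. Over the 15 low libraries, r was 0.27 for Gk (0.634; rho = 0.20, 0.794), -0.00896 for Slc6a8 (0.999; rho = 0.00357, 0.9955) and -0.000466 for Ckb (0.999; rho = 0.03, 0.964). With all 9 epithelial markers, 0 were called in any group of eWAT by edgeR. The call of Gpd1 in Ctrl_CE was kept with the epithelial score as a covariate (1.35, adjusted p = 0.0136).

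**Figure D4:**
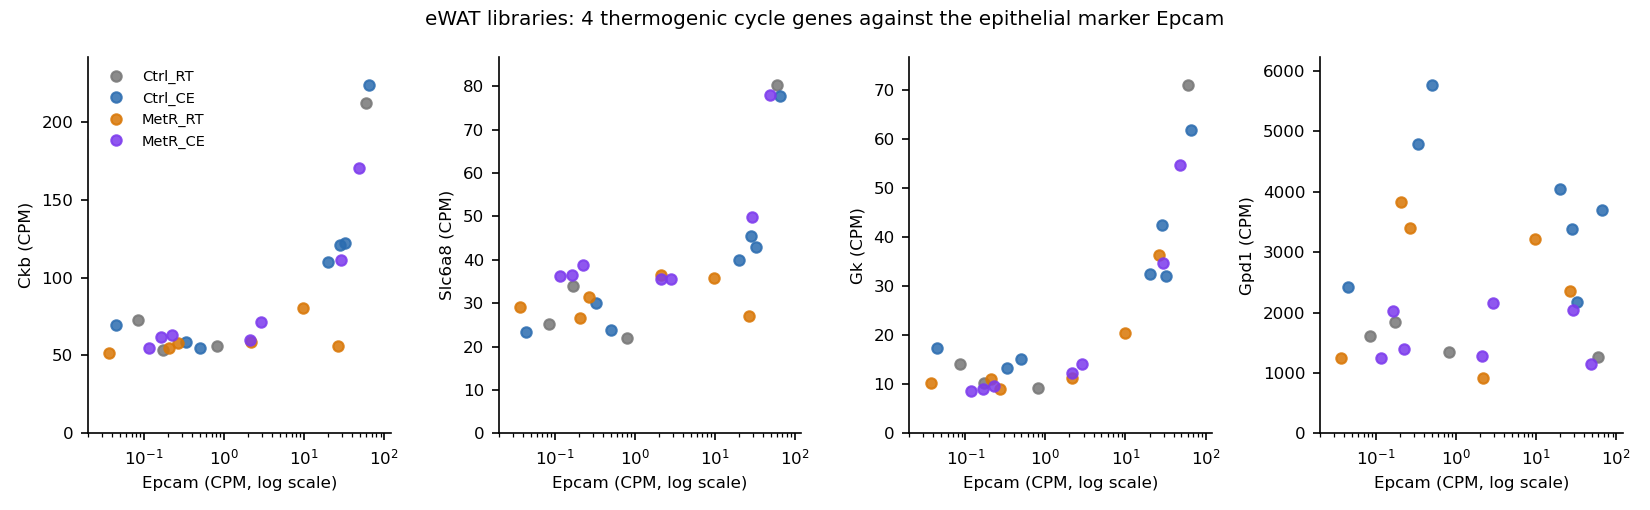
Levels of Ckb, Slc6a8, Gk and Gpd1 (CPM) against Epcam (CPM, log axis) in the 24 eWAT libraries, coloured by group. The libraries fall into 15 at 2.86 CPM of Epcam or lower and 9 at 9.75 CPM or higher, and the highest Ckb, Slc6a8 and Gk levels lie in the latter.

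Of the 4 eWAT libraries that the study left out, 3 stood apart in Gatm and Ckmt2. Gatm was at 21.7, 69.2 and 35.1 CPM in Ctrl_RT replicates 4 and 5 and MetR_RT replicate 7, against 3.53 to 9.55 CPM in the 24 libraries used. Ckmt2 was at 1.26, 3.50 and 1.95 CPM in the same 3, against 0.133 CPM or lower. In the other one, Ctrl_RT replicate 2, these were at 5.39 and 0 CPM, and Gk reached 214 CPM. In iBAT, the library left out (Ctrl_CE replicate 5) had 17.6 CPM of Ckmt2, above the 14.1 CPM of the highest library used.

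Ckmt2 varied with skeletal muscle transcripts, and edgeR called no treatment in it. With the muscle score as a covariate, its difference in iWAT MetR_RT turned from 1.47 to -0.95 and was called (adjusted p = 0.0381), but with Myh4 and Acta1 in place of the score it was not (-0.60, 0.403). The fast-muscle genes Myh4 and Acta1 varied from 0 to 677 CPM and 0 to 441 CPM in iBAT, and from 0 to 10016 CPM and 0.313 to 4026 CPM in iWAT. In iBAT, Myh4 was under 1 CPM in 11 libraries (2, 3, 3 and 3 of Ctrl_RT, Ctrl_CE, MetR_RT and MetR_CE), and there Ckmt2 was 0.0894 CPM at most. In the other 15, Ckmt2 ranged from 0.752 to 14.1 CPM and correlated with a muscle score of fast-muscle genes at r = 0.94 and rho = 0.95 (adjusted permutation p = 9.5e-05 for both, 0.94 without 2 libraries). In iWAT, the 24 libraries with at least 1 CPM of Myh4 had r = 0.96 and rho = 0.95 (9.5e-05 for both, 0.96 without 2 libraries). The highest Ckmt2 level of all, 32.2 CPM, was in the iWAT library with the most Myh4, MetR_RT replicate 6.

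**Figure D5:**
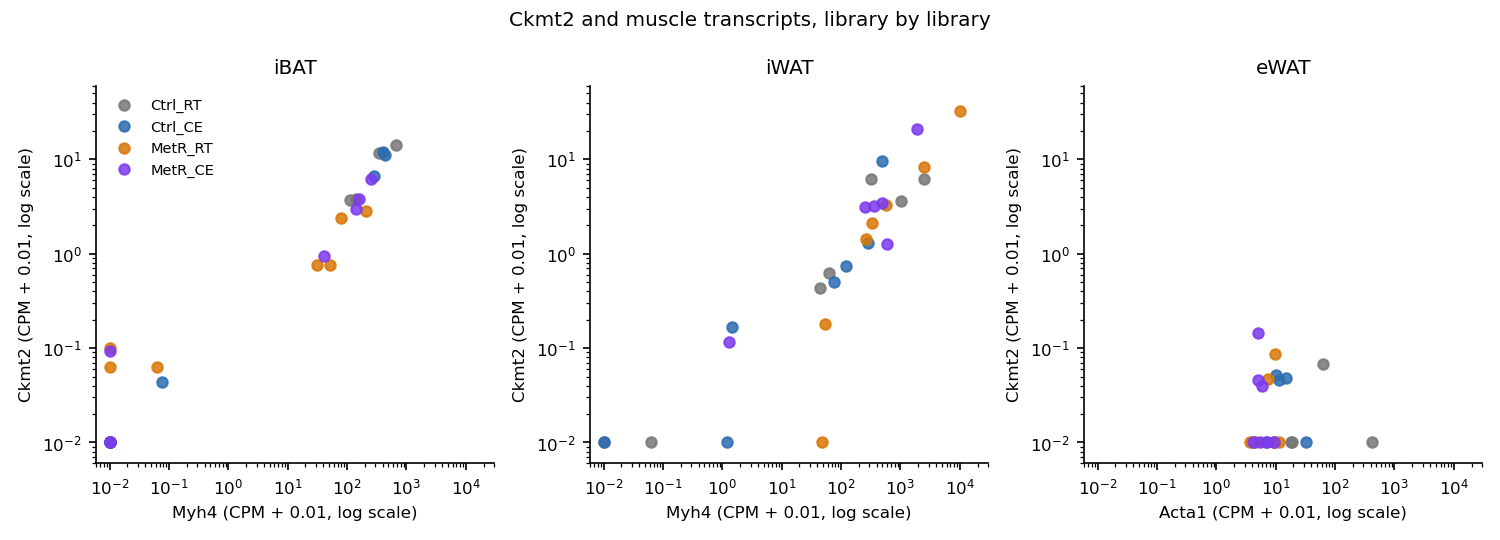
Ckmt2 against Myh4 (iBAT and iWAT) and against Acta1 (eWAT) in each library, in CPM + 0.01 on log axes, coloured by group. In iBAT, the 11 libraries with Myh4 under 1 CPM have at most 0.0894 CPM of Ckmt2, and the highest point is the iWAT library at 10016 CPM of Myh4 and 32.2 CPM of Ckmt2.

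No difference in muscle RNA from Ctrl_RT passed an exact permutation test over libraries in iBAT or iWAT. The other groups were not tested against each other. The muscle score (mean log2 CPM) of MetR_RT against Ctrl_RT differed by -1.53 in iBAT (adjusted p = 0.598) and 2.20 in iWAT (0.374). In eWAT, its differences of -0.28, -0.36 and -0.38 in Ctrl_CE, MetR_RT and MetR_CE passed (0.0429, 0.0429 and 0.0455, exact permutation test, 9 tests in all). The score was low there, with a Ctrl_RT mean of -0.03, against 2.72 in iBAT and 2.91 in iWAT. Myh4 averaged 0.00647 CPM or lower in each eWAT group on the common scale. Acta1 had medians of 40.7 CPM in eWAT Ctrl_RT and 5.36 to 10.1 CPM in the other groups. Which genes carried the eWAT differences was not tested. Of the 18 fast-muscle genes, 1 was called higher in Ctrl_CE and 1 lower in MetR_CE in iBAT (4.97% of all genes higher and 10.3% lower). In iWAT, 0, 1 and 3 were higher in Ctrl_CE, MetR_RT and MetR_CE (5.99%, 4.25% and 8.05% of all genes). Mb of that list had medians of 7.21, 29.7, 2.39 and 21.1 CPM in Ctrl_RT, Ctrl_CE, MetR_RT and MetR_CE of iBAT. Its lowest level in Ctrl_CE was 12.3 CPM, a group in which Myh4 went down to 0 CPM. With the score as a covariate, all 5 calls of iBAT Ctrl_CE and all 5 of MetR_CE were kept. An alternative chosen after the data had been seen kept the iBAT libraries with Myh4 under 1 CPM, among them 2 of Ctrl_RT and 3 of Ctrl_CE. There, the Ctrl_CE response was 3.29 for Ckb, 2.40 for Gk, 1.0 for Alpl, 0.95 for Atp2a2 and 0.78 for Gpd1, all called. These were larger than with all 26 libraries, whereas that of Ryr2 was smaller and its call ended (-0.54, adjusted p = 0.377). The choice also dropped Ctrl_RT replicate 1, the library with 70.7 CPM of Ckb. Why the sizes changed was not tested, and so few libraries cannot decide the Ryr2 call. In iWAT with the covariate, Gk had 3.44, 2.76 and 4.05, Alpl 1.29, 1.61 and 2.30, Gpd1 1.60, 1.53 and 1.61, and Pm20d1 1.28, 1.74 and 1.73 in Ctrl_CE, MetR_RT and MetR_CE, all called.

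In liver, Gk rose in both cold groups and Gatm in Ctrl_CE, and the creatine transporter Slc6a8 fell with cold and methionine restriction together. Of 8 members tested, 2 were called higher in Ctrl_CE (11.9% of all genes called, 7.28% higher), and 2 higher and 1 lower in MetR_CE (13.5%, 6.25% higher and 7.22% lower). Gatm rose from 5.79, 7.63 and 8.96 CPM to 9.29, 13.2 and 18.9 CPM in Ctrl_CE without overlap (0.83 ± 0.14, adjusted p = 2.56e-05). In MetR_CE, Gatm stayed below 1.5-fold (0.47 ± 0.14, adjusted p = 0.00854). Gk was at 58.1, 60.8 and 78.5 CPM in Ctrl_RT, 104, 111 and 160.1 CPM in Ctrl_CE, 66, 80.8 and 86.2 CPM in MetR_RT and 94, 113 and 153 CPM in MetR_CE. Both cold groups lay wholly above Ctrl_RT, by 0.81 ± 0.11 (adjusted p = 1.08e-06) and 0.79 ± 0.11 (adjusted p = 8.94e-07). Gk was thus called higher in the cold in iBAT, iWAT and liver. Alpl rose in MetR_CE, from 13.9, 22.2 and 29.3 to 25.3, 40.3 and 54.1 CPM with overlap (0.88 ± 0.17, adjusted p = 0.000120).

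The fall of Slc6a8 in liver was clear of overlap. Slc6a8 was at 9.49, 10.2 and 16.5 CPM in Ctrl_RT, 8.27, 9.62 and 12.9 CPM in Ctrl_CE, 4.81, 7.87 and 10.1 CPM in MetR_RT and 3.97, 6.07 and 7.73 CPM in MetR_CE, and MetR_CE lay wholly below both Ctrl groups. It changed by -0.94 ± 0.15 (adjusted p = 1.74e-05) against Ctrl_RT and by -0.76 ± 0.15 (adjusted p = 0.00109) against Ctrl_CE. Ckb was likewise lower in MetR_CE than in Ctrl_CE (-0.95 ± 0.17, adjusted p = 0.000349), at 4.76, 5.58 and 6.31 against 7.11, 9.94 and 19.9 CPM. These were the 2 of 8 members called between both cold groups (5.26% of all genes, 4.1% lower). In MetR_RT, edgeR and DESeq2 called 0 of 8 (6.91% of all genes), with 2 at an unadjusted p under 0.05 (6572 of all 22143 genes). Slc6a8 had the largest difference (-0.55 ± 0.15, adjusted p = 0.00938, below 1.5-fold).

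Other genes of the same cycles were taken from lists of known pathway members. Of 23 further glycerolipid genes, 10, 7 and 15 were called higher and 0 lower in iWAT (Ctrl_CE, MetR_RT and MetR_CE), beside 5.99%, 4.25% and 8.05% of all genes higher, and the whole list had medians of 0.65, 0.55 and 0.72. In iBAT, 5, 1 and 5 were higher and 1 lower in each group, beside 14.7%, 2.5% and 14.7% of all genes called either way, with medians of 0.32, 0.02 and 0.28. Among them, Dgat1, which makes triglyceride, rose by 0.94 ± 0.08 (adjusted p = 4.12e-10) in iBAT Ctrl_CE, and its counterpart Dgat2 fell by 1.37 on the log2 scale in MetR_CE. Plin5, a lipid droplet protein, rose by 2.30 ± 0.31 (adjusted p = 1.58e-06) in iWAT MetR_CE. Gpam, which adds the first acyl chain to glycerol-3-phosphate, rose by 0.83 ± 0.09 (adjusted p = 2.03e-08) in iBAT MetR_CE.

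The calcium list did not move one way. Of 23 further genes, 1, 0 and 0 were called higher and 1, 0 and 1 lower in iBAT, and 0, 4 and 3 higher and 1, 1 and 3 lower in iWAT. All genes were called at 14.7%, 2.5% and 14.7% in iBAT and at 15.9%, 11.6% and 22.4% in iWAT. Of the 23, the list's 2, 0 and 1 calls in iBAT and 1 in iWAT Ctrl_CE are not above that background. Its 6 calls in iWAT MetR_CE (3 higher and 3 lower) lie near the background. The 5 in iWAT MetR_RT are above it, by a margin that was not tested. The pump gene Atp2a3 rose (1.18 ± 0.17, adjusted p = 3.75e-06), whereas Slc8a1, a sodium-calcium exchanger, and Atp2b1, a plasma membrane pump, went down (-1.34 ± 0.26, adjusted p = 0.000165, and -0.74 ± 0.13, adjusted p = 3.62e-05), all in iWAT MetR_CE. Calr, a calcium-binding protein of the endoplasmic reticulum, rose by 0.69 ± 0.08 (adjusted p = 2.45e-08) in iBAT Ctrl_CE. Of the 3 further creatine genes, Gamt, the second enzyme of creatine synthesis, was called lower in every group of iBAT (-0.72 ± 0.17, -0.76 ± 0.17 and -1.34 ± 0.17) and in MetR_CE of iWAT (-0.73 ± 0.21, adjusted p = 0.00787). Of 7 peptidases and N-acyl amino acid enzymes beside Pm20d1, 0 were called in iBAT, whereas in iWAT 2 were higher in each group and 2 lower in MetR_CE, beside the same shares of all genes. In iWAT MetR_CE, Aspa, which cleaves N-acetylaspartate, had 1.24 ± 0.12 (adjusted p = 6.45e-08) and Pm20d2 0.94 ± 0.19 (adjusted p = 0.000262).

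Over the 12 group means of the 3 depots, each centred on its depot, 9263 genes were ranked by Pearson r with each member as a description. The closest genes were Sema3f (0.983), AI506816 (0.982) and Samd14 (0.975) for Ckb, and Eif1ad (0.989), Ankrd9 (0.987) and Dhrs11 (0.984) for Gk. For Gpd1 they were Eno1 (0.987), Pex16 (0.986) and Gapdh (0.985), of which Eno1 and Gapdh are enzymes of glycolysis. Otub1 (0.996), Pdss1 (0.993) and Ppm1g (0.992) came closest to Atp2a2, Dot1l (0.972), N6amt1 (0.971) and Khdrbs3 (0.969) to Alpl, and Vdac1 (0.981), Opa1 (0.977) and Ndufs5 (0.973), which encode mitochondrial proteins, to Pm20d1. Gatm and Slc6a8 had Serinc5 (0.945) and D10Wsu102e (0.937) as their closest.

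In the genome (GRCm38, GENCODE M21), the members are scattered over 8 chromosomes. Ckb lies at chr12:111669361-111672338, Ckmt2 at chr13:91853387-91876885, Gatm at chr2:122594467-122611303 and Alpl at chr4:137741733-137796384, all on the minus strand. Atp2a2 (chr5:122453513-122502225), Ryr2 (chr13:11553102-12106945) and Gk (chrX:85701937-85776819) are on the minus strand also. Slc6a8 (chrX:73673150-73682502), Gpd1 (chr15:99717515-99725005) and Pm20d1 (chr1:131797381-131821473) are on the plus strand. Their merged exons span from 1486 bases in Ckmt2 to 28790 in Ryr2.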

How the data were processed

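The authors deposited counts per gene, without normalization, for liver, for iBAT with iWAT, and for eWAT. Libraries were made from polyA RNA with NEBNext Ultra II (strandedness not given in the sources used here). The submitters' processing notes name STAR 2.7.9a with mm10, featureCounts 2.0.3 and Salmon 1.9.0, and which of the counters made the tables was not settled. Groups were taken from the titles, and no column was left unused. The study left out 5 libraries, which were identified by comparing subset means with its source data. Of 56884 gene IDs, 51948 had a symbol.

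Tests used edgeR 4.0.16 (R 4.3.3): TMM factors, genes with at least 10 counts in a tissue, a quasi-likelihood fit with diet, temperature and their interaction, and Benjamini-Hochberg adjusted p over all genes. The SE is the log2 fold change divided by the square root of F. Log2 CPM took a prior count of 2. Levels and responses were compared between tissues in a joint fit of all genes, where limma 3.58.1 gave a correlation of 0.0328 within mice. On simulated counts, the share of genes recovered at a log2 change of 1 was 96% (liver), 92% (iBAT), 82% (iWAT) and 66% (eWAT). Alternatives included DESeq2 1.42.0, other filters and normalizations, a 1.5-fold null (glmTreat), covariates and omission of each library. Correlations permuted libraries within groups 100000 times. Pathway genes named are from the up to 3 called genes per list and direction with the largest change in iBAT or iWAT, at a mean of at least 1 CPM, and like genes (at least 5 CPM) are the top 3 by r.

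The members and lists were chosen with earlier results of these data known. Replicates are different mice.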

Additional observations from a re-analysis of the deposited data

Results flagged for a closer look

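Each member was looked at in each group of each tissue (4, 6 or 7 libraries). In 23 of 152 such sets, 1 library stood apart from the rest, by its gap as a share of the range. In every case it was the highest library. The cut-off flags 5% of sets of normally distributed values. CPM levels were not tested for that, so the 5% is no measure of chance here. In iBAT these were Ckb in Ctrl_RT replicate 1 (70.7 CPM) and MetR_CE replicate 4 (147 CPM), and Gatm in MetR_CE replicate 2 (5.03 CPM). In iWAT, Ckmt2 stood out in MetR_RT replicate 6 (32.2 CPM), MetR_CE replicate 6 (21.1 CPM) and Ctrl_CE replicate 5 (9.54 CPM). Gatm in Ctrl_CE replicate 7 (22.5 CPM), Ckb in Ctrl_CE replicate 4 (91.6 CPM), Gpd1 in Ctrl_RT replicate 5 (4497 CPM) and Slc6a8 in Ctrl_RT replicate 1 (39.5 CPM) were further single high iWAT libraries.

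In eWAT, replicate 6 of Ctrl_RT stood out in Ckb (212 CPM), Gk (71.1 CPM) and Ckmt2 (0.0571 CPM), and Ctrl_CE replicate 2 in Ckb (224 CPM) and Slc6a8 (77.8 CPM). MetR_CE replicate 4 did in Slc6a8 (78 CPM) and Ckmt2 (0.133 CPM), MetR_RT replicate 5 in Ckb (80.3 CPM), and replicate 3 of Ctrl_CE and of MetR_CE in Alpl (19.8 and 10.6 CPM). In liver, Ckb in Ctrl_CE replicate 2 (19.9 CPM), Gk in Ctrl_CE replicate 1 (160.1 CPM) and Atp2a2 in MetR_RT replicate 3 (349.8 CPM) stood above their groups.

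The effect of cold differed between diets, by the test of the interaction, for Gpd1 in iWAT (-1.51) and eWAT (-1.94) and for Pm20d1 in iWAT (-1.28), on the log2 scale. Between depots, 23 responses differed in the joint fit. For Ctrl_CE, iWAT minus iBAT was -2.46 for Ckb, 1.05 for Gpd1, 1.60 for Gk and 0.97 for Pm20d1. For the same group, Gk was 3.28 in iWAT minus eWAT, and Ckb was 2.53 in iBAT minus eWAT. In MetR_RT, iWAT minus iBAT gave 1.23 for Pm20d1, 1.66 for Alpl, 0.99 for Gpd1 and 2.91 for Gk, and iWAT minus eWAT gave 1.16 for Pm20d1, 1.78 for Alpl and 3.15 for Gk.

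In MetR_CE, iWAT minus iBAT was 1.31 for Pm20d1, 1.53 for Alpl, -1.07 for Ckb and 2.51 for Gk. The differences of iWAT minus eWAT were 1.67 for Pm20d1, 2.22 for Alpl, 0.70 for Atp2a2, 1.43 for Gpd1 and 4.19 for Gk, and iBAT exceeded eWAT by 1.64 in Ckb.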

How the results depend on the processing

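Of 45 calls of members, 20 were kept in every alternative run. Outside the omission of single libraries, 918 of 1015 results counted as the same. With 1 library left out at a time (77 libraries of the fat depots), 1682 of 1753 did. A fold change counted as the same when its call did not change, and its direction was compared only where either run called it. Uncalled fold changes that turned sign are thus among the same. A count of members was the same when it moved by at most 1.5 times. The counts of members called that moved by over 1.5 times are given first, and where no reason is given, the cause was not tested. Testing against a 1.5-fold null (glmTreat) asks for more by construction. It lowered liver Ctrl_CE from 2 to 0, MetR_CE from 3 to 0 and MetR_CE against Ctrl_CE from 2 to 0. In iBAT it lowered MetR_CE from 5 to 3 and MetR_CE against Ctrl_CE from 3 to 0, and in iWAT Ctrl_CE and MetR_RT from 5 to 3, the interaction from 2 to 0 and MetR_CE against Ctrl_CE from 1 to 0. In eWAT, Ctrl_CE, the interaction and MetR_CE against Ctrl_CE went from 1 to 0. A filterByExpr filter gave 1 in liver MetR_CE against MetR_RT, and DESeq2 with or without apeglm gave 1 in the iBAT interaction (Ryr2), where edgeR gave 0. In iBAT, MetR_CE against Ctrl_CE went from 3 to 0 with groups by treatment tag and, chosen after seeing the data, with low Myh4 libraries alone (fewer samples). In eWAT, the muscle covariate gave 0 in place of 1 for Ctrl_CE and the interaction, and all deposited libraries gave 2 for Ctrl_CE and 0 for the interaction. With all libraries, the cold responses that differed between iWAT and eWAT went from 1 to 3, between iBAT and eWAT from 1 to 2, and in MetR_CE between iBAT and eWAT from 1 to 4. Ckmt2 reversed in iWAT MetR_RT with the muscle covariate (1.47 to -0.95, adjusted p = 0.0381) and in eWAT Ctrl_CE with all libraries (0.06 to -4.98, adjusted p = 0.0492).

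Single calls changed as well where the count did not move that far. The Gk call in iBAT MetR_CE against Ctrl_CE also ended with the muscle score (-0.58, adjusted p = 0.0464) and with all libraries (-0.58, 0.0394), in both by falling below 1.5-fold. Gatm in iWAT MetR_CE was called under 7 settings (adjusted p from 0.0119 to 0.0437), and Ryr2 in iWAT MetR_RT was lost with no filter (0.0501) and with only its 2 groups (0.0530). DESeq2 called Gk in the iWAT interaction (0.0227), and limma voom with mouse blocks lost Pm20d1 in MetR_RT between iWAT and eWAT (0.0578) and gained Gpd1 in MetR_CE between iWAT and iBAT (0.0298).

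With 1 library left out, counts ranged from 0 to 1 in the iBAT interaction, 1 to 3 in the iWAT interaction, 0 to 1 in iWAT MetR_CE against MetR_RT and against Ctrl_CE, and 0 to 1 in eWAT Ctrl_CE and its interaction. Replicate numbers did not pair samples, which come from different mice. The median correlation of same-numbered libraries was -0.00296, -0.00509, 0.0834 and 0.109 for liver, iBAT, iWAT and eWAT. For differently numbered libraries it was 0.00649, -0.0180, -0.00345 and -0.0206. Same-numbered libraries were thus somewhat more alike in iWAT and eWAT, and the reason was not tested. With a replicate block, MetR_CE against Ctrl_CE in iWAT went from 1 to 0 (Ryr2, adjusted p = 0.0550). The block also ended the calls of Ryr2 in iWAT MetR_RT (0.0688) and of Gk in iBAT MetR_CE against Ctrl_CE (0.0579), gave one for Gatm in iWAT MetR_CE (0.0388), and changed no other call of a member. Counts were few for Ryr2 in iWAT (250 in 27 libraries), eWAT (325 in 24) and liver (5 in 28), and for Ckmt2 in eWAT (15) and liver (0).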
